A study of Mus musculus with 3 samples.

Results

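The proliferin window runs from 12.8 to 13.35 Mb on chromosome 13 of the mm9 mouse genome. It was selected on measured values, namely the positions and scores of the Nrf2 peaks in both lists. The members are all listed peaks that overlap this window, and there were 8 of 2892 in replicate 1 and 16 of 3593 in replicate 2. Overlapping peaks of the replicates merged into 6 shared regions, out of 1750 in the genome. The window takes its name from the proliferin genes Prl2c3, Prl2c2 and Prl2c5. All 3 genes were found on chromosome 13 in the RefSeq gene table of the GRCm38.p6 assembly, in the order Prl2c3, Prl2c2, Prl2c5.

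The data are chromatin immunoprecipitation and sequencing (ChIP-seq) of Nrf2, in 2 replicates, from wild-type C2C12 myotubes, the fused and differentiated form of a mouse myoblast line. The cells had been in low-serum medium for 72 h and then received CDDO-Im, a synthetic triterpenoid that activates Nrf2, at 100 nmol/L for 3 h. All samples, including the 1 input, carried this treatment, so the peaks describe treated myotubes and no change with treatment can be read from them. The reads of the input were not analysed here, the depth of each list is unknown, and a peak list holds no expression values with which to check the myotube state. The labels do not say whether the replicates were separate cultures, and their differences may be technical.

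Nrf2 is a transcription factor that, once released from its inhibitor Keap1, enters the nucleus, pairs with small Maf proteins and binds antioxidant response elements in DNA. It is best known for switching on genes of glutathione synthesis, quinone reduction and haem breakdown. Proliferins are secreted glycoprotein hormones of the prolactin family. They are made in quantity by the trophoblast giant cells of the mouse placenta, where they promote the growth of blood vessels. They are also known from cultured mouse fibroblasts, in which growth factors and serum induce them, and have been described as inhibitors of myogenic differentiation. The genes are close copies of each other.

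The promoters of 2 copies are shown first, because how alike the copies are bears on how far a peak can be tied to 1 of them. The RefSeq promoter table (GRCm38.p6) matched 2 of the 3 members, Prl2c3 on the minus strand and Prl2c5 on the plus strand, and Prl2c2 had no entry. The 250 bases before the annotated start of each gene are printed 5′ to 3′ on the gene's own strand, with capitals for the bases that differ between the copies.
Prl2c3: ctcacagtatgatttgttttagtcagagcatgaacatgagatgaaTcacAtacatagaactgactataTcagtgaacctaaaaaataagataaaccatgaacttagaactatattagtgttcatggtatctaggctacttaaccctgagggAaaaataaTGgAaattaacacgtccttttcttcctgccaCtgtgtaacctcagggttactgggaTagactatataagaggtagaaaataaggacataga
Prl2c5: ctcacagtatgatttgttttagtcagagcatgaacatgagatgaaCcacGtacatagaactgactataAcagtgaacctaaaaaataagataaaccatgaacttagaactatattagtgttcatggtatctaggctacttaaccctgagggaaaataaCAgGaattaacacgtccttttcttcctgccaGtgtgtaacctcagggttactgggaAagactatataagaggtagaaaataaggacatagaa
Over 250 aligned positions, 241 were identical (96.4%), 8 were mismatches and 1 was a gap. Both promoters were searched on both strands for the core antioxidant response element TGACNNNGC, for its longer form TGACTCAGC, and for the AP-1 site TGACTCA, which the longer form contains. None of the 3 motifs was found in either stretch of 250 bases. Among 32851 RefSeq promoter entries of the same length, 10.2% held the core element, 0.390% the longer form and 4.46% the AP-1 site. The absence of these letters describes these 250 bases and says nothing of more distant sequence. The sequence under the peaks, which are in mm9 coordinates, was not examined here.

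Each list gives a score for every peak. It is the authors' deposited value, read as minus 10 times log10 of the peak caller's p-value, so that a higher score marks a peak rated less likely to be background. The lowest scores were 50 in replicate 1 and 50.02 in replicate 2. A shared region was called strong when its best peak scored at least 500 in both replicates. The window held 3 strong regions, out of 31 in the genome, which were 1.77% of all shared regions. Since the window was chosen for these scores, the counts and ranks are a description and carry no test.

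The first strong region, chr13:12905848-12906817, was the top-ranked shared region of the series by the worse of its ranks in the lists. Its peak in replicate 1 spanned 12905888 to 12906696 (809 bp) with a score of 1855, the second highest of the list. Its peak in replicate 2 spanned 12905848 to 12906817 (970 bp) with a score of 3100, the highest of the list. MACS 1.4 is known to print 3100 as a ceiling when a p-value is too small to be computed, and 1 peak of replicate 2 carried it, so this score may be a lower limit. The peak of replicate 1 lay wholly within that of replicate 2, and their centres were 40.5 bp apart.

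The second strong region, chr13:13117818-13118636, ranked 18 in replicate 1 and 11 in replicate 2. The peak of replicate 1 was 714 bp wide and scored 761, and that of replicate 2 was 819 bp wide and scored 1576. Again the narrower peak of replicate 1 lay wholly inside the other, with centres 47.5 bp apart and ends that differed by 5 bp.

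The third strong region, chr13:13260512-13261577, ranked 21 in replicate 1 and 9 in replicate 2. The replicate 1 peak was 824 bp wide and scored 628, while the replicate 2 peak was 1048 bp wide and scored 1624. The peaks shared 806 bp, and their centres were 130 bp apart because the starts differed by 242 bp and the ends by 18 bp. The second and the third strong regions thus changed places between the lists, with the higher score at the second in replicate 1 and at the third in replicate 2. The first strong region led both of them in each list.

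**Figure D1:**
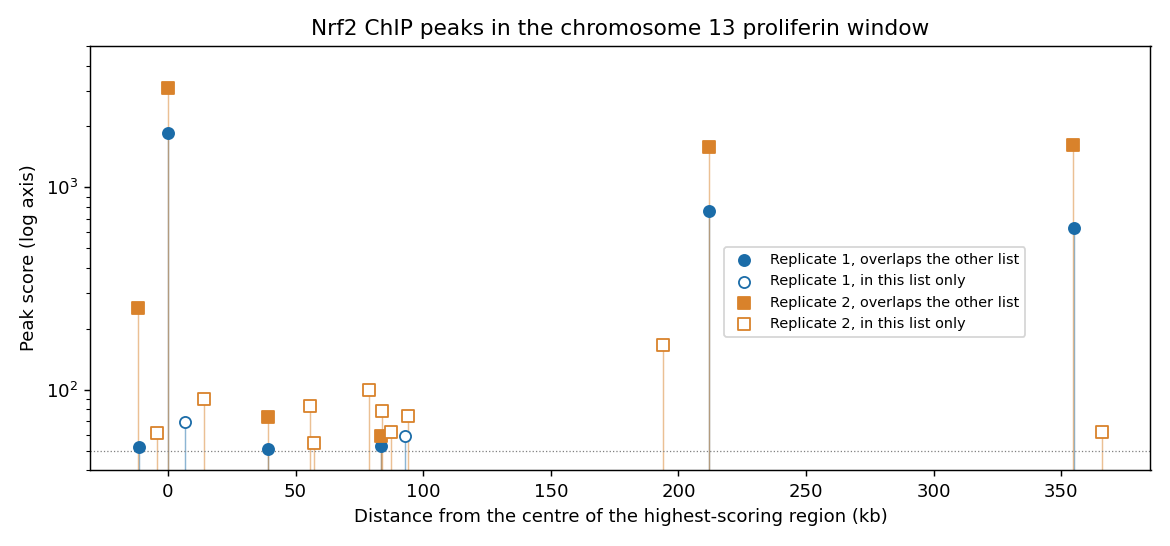
Score of each listed peak (log axis) against its distance in kb from the centre of the first strong region. Circles are replicate 1 and squares replicate 2, filled where the peak overlaps the other list, and the dotted line marks a score of 50. The 3 strong regions stand at 0, 212 and 355 kb, and most of the other peaks lie under a score of 100 within 100 kb of the first.

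The strong regions were not evenly spaced. The centres of the first and second lay 211.9 kb apart and those of the second and the third 142.8 kb apart, so the longer distance was 1.48 times the shorter. The distances were nearly the same in each replicate. Between the first and second regions they were 211982 bp from the peaks of replicate 1 and 211894 bp from those of replicate 2, and the values for the second and the third differed by 82.5 bp. The 69.1 kb difference between the spacings was therefore far above the difference between replicates. No peak of either list lay in the 141.9 kb between the second and the third strong regions.

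Around each strong region the highest-scoring other peak of replicate 2 within 20 kb was compared, a choice made after the values were seen. The companion of the first strong region, chr13:12894424-12895243, lay 11.5 kb away on the side of lower coordinates. It scored 252.9 in replicate 2 (rank 480) and 52.4 in replicate 1 (rank 2721), and its centre differed by 70 bp between the replicates. The companion of the second strong region, chr13:13099977-13100638, lay 17.9 kb away, again on the lower side, with a score of 167 in replicate 2 (rank 834). The companion of the third, chr13:13272080-13272609, lay 11.3 kb away on the side of higher coordinates, with a score of 62.1 (rank 2772). Replicate 1 listed a peak at the first companion and at neither of the others.

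The first and the third companions were thus at distances that differed by 199 bp, on opposite sides of their strong regions, while the second was 6.42 kb farther out than the first. Whether these distances relate to the order or the strands of the gene copies was not tested. Gene positions in mm9 were not used here and none were converted from GRCm38.p6. The offset of each peak from the start of each gene copy was therefore not measured, and no peak was assigned to a copy. Other genes also lie between the copies in the RefSeq order. There were 4 entries between Prl2c3 and Prl2c2, namely pseudogenes and the non-coding RNA gene Gm40904. A further 6 lay between Prl2c2 and Prl2c5, where the entry next to Prl2c2 was the non-coding RNA gene Gm40903. The nearest protein-coding neighbours outside the copies were Ero1b, which encodes an oxidoreductase of the endoplasmic reticulum, before Prl2c3, and Gm7040 after Prl2c5. The fourth proliferin-type gene of the table, Prl2c1, lies apart from these copies, between Prl2a1 and Prl4a1 among the protein-coding genes.

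**Figure D2:**
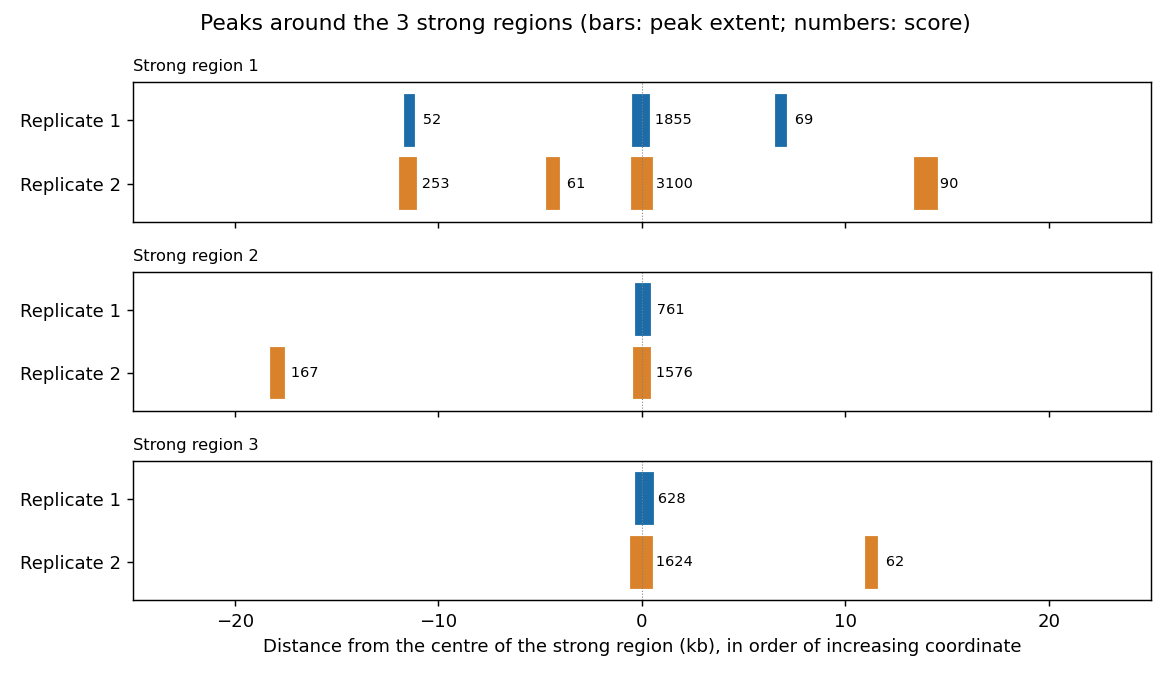
Extent of the peaks within 25 kb of each strong region, against distance in kb from its centre, with replicate 1 above replicate 2 in each panel and the score beside each bar. The companion peaks of replicate 2 stand 11.5 kb below the first, 17.9 kb below the second and 11.3 kb above the third strong region.

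Most of the weaker peaks had the first strong region as their nearest, at distances of up to 94.1 kb. Of 15 other positions, counting each shared region and each peak of only 1 list, 13 were nearest to the first strong region, with 2 on its lower and 11 on its higher side. The second and the third strong regions had 1 each. Within 20 kb the first strong region had 4 other positions. Besides its companion these were a peak of replicate 2 at 4.37 kb below (score 61.0), a peak of replicate 1 at 6.82 kb above (69.1) and a peak of replicate 2 at 13.98 kb above (90.3). None of these 3 overlapped a peak of the other list.

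Farther up, chr13:12945311-12945957 was shared, 39.3 kb above the first strong region, with scores of 50.95 in replicate 1 and 73.7 in replicate 2. The overlap there was 172 bp, which was 52.4% of the replicate 1 peak and 35.03% of the replicate 2 peak, and the centres were 237.5 bp apart. A run of 8 positions followed within 39.2 kb (chr13:12961499-13000702), made of 2 peaks of replicate 1 and 7 of replicate 2. All had scores from 52.97 to 99.4. The run contained 1 shared region, chr13:12989550-12989977, with scores of 52.97 and 59.3, and the next peak of replicate 2 began 30 bp beyond it. A stretch of 99.3 kb without a peak then separated the run from the companion of the second strong region.

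The replicates shared all peaks of the window with a score of at least 500, as over the whole lists, and some of the weaker ones. In replicate 1, 6 of 8 peaks had a partner in the other list, against 66.1% of the whole list. In replicate 2, 6 of 16 had a partner, against 50% of the whole list. Below a score of 100 the counts were 3 of 5 in replicate 1, where the share over the list was 53.7%, and 2 of 11 in replicate 2, where it was 33.2%. All 3 peaks with a score of at least 500 had a partner in each list, as did 100% of such peaks in both whole lists. The differences between the window and the whole lists were not tested.

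The scores of the window fell into separate ranges. In replicate 1, 3 peaks scored from 628 to 1855 and the other 5 from 50.95 to 69.1, with a median of 52.97 and ranks from 1789 to 2824. In replicate 2, 3 peaks scored from 1576 to 3100 and the other 13 from 54.4 to 252.9, with a median of 74.6 and ranks from 480 to 3204. Scores of at least 500 were reached by 1.24% of the list in replicate 1 and 4.76% in replicate 2. Every one of the 6 shared regions scored higher in replicate 2, as did 66.1% of all shared regions and 77.4% of the 31 strong ones. Scores depend on depth, so no difference in binding was read from this.

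**Figure D3:**
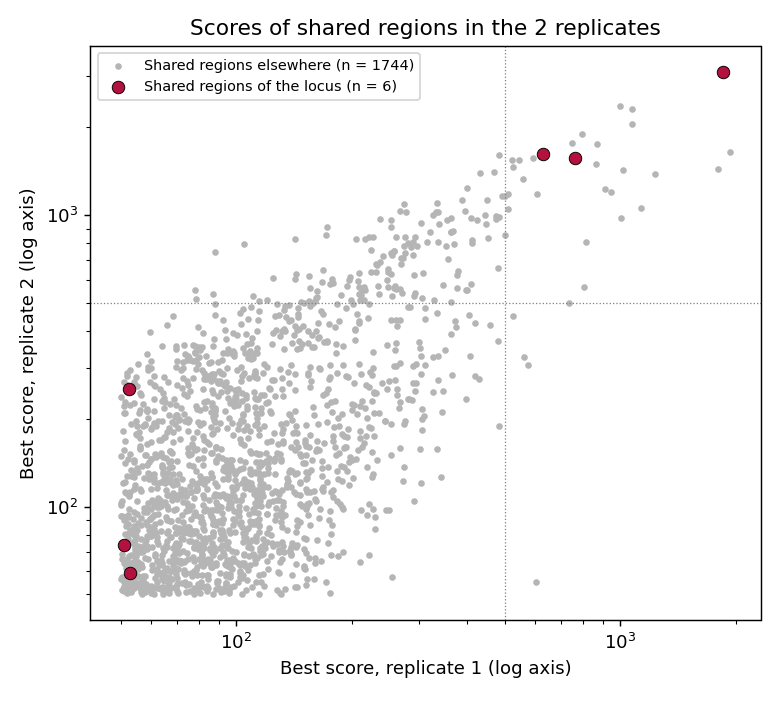
Best score of each shared region in replicate 1 and replicate 2 (both log axes), with the 6 shared regions of the window in red, the other 1744 in grey and dotted lines at a score of 500. Of the red points, 3 lie past 500 in both replicates, and the other 3 lie near 50 in replicate 1.

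The strong peaks of the window were wider than most peaks of their lists and about as wide as other strong ones. Median widths over the whole lists were 455.5 bp in replicate 1 and 612 bp in replicate 2. The strong peaks of the window measured 714, 809 and 824 bp in replicate 1 and 819, 970 and 1048 bp in replicate 2, and the merged regions were 819 to 1066 bp wide with a median of 970 bp. The other 28 strong regions of the genome ranged from 647 to 9097 bp with a median of 965.5 bp, and 17 of them were narrower than 1100 bp, a limit set with the widths known. Those 17 had a median of 900 bp. Centres of the replicates differed by 2 to 76 bp over the 17 and by 2 to 2879 bp over all 28. The 130 bp at the third strong region was above the range of the 17 and within that of the 28. The weaker peaks of the window were 328 to 482 bp wide in replicate 1 and 392 to 1092 bp in replicate 2. Of the 6 shared regions, 5 had the wider peak in replicate 2, and over all shared regions this held for 85.7%.

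**Figure D4:**
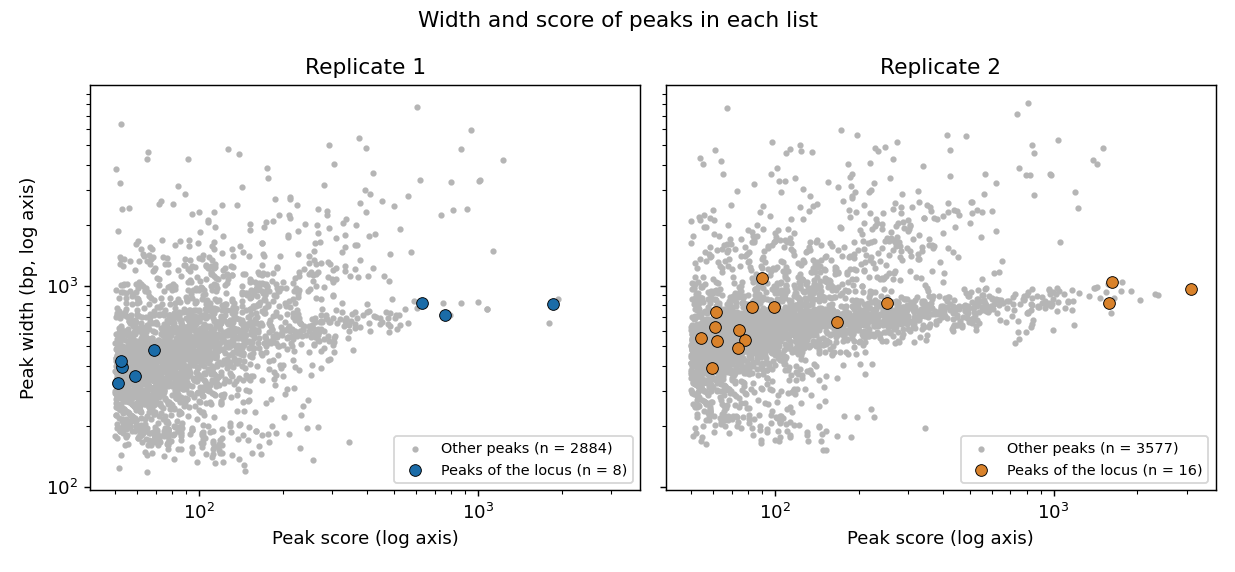
Width in bp against score for every peak of each list (log axes), with the peaks of the window in colour and all others in grey. The 3 strong peaks of the window lie between 714 and 1048 bp, among other high-scoring peaks of like width and below the peaks of several kb.

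The window was then set beside the other places where strong regions lie close together. When strong regions of 1 chromosome were chained at distances of up to 550 kb, the 31 formed 25 groups, of which 20 were single regions, 4 were pairs and 1, the proliferin window, held 3. Of the pairs, the one on chromosome 8 at chr8:77607411-77614066 consisted of regions of 859 and 941 bp, 5.76 kb apart. The other 3 pairs were on chromosome 4, on chromosome 8 and on the separate sequence named chr8_random. They were made of regions from 2467 to 8118 bp wide and 62.4 to 138.8 kb apart. The distance of 138.8 kb was measured along chr8_random. Within a single list, groups of high-scoring peaks also occurred elsewhere. Chromosomes 1 to 19 and X were cut into windows of 550 kb. The edges were set by those of the proliferin window, so groups elsewhere may be split between windows. On this grid 2 windows, the proliferin window included, held at least 3 replicate 1 peaks scoring 500 or more, and the other held 5. In replicate 2 there were 4 such windows, and the highest number was 4. The comparison rests on the same scores that chose the window and was not tested.

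Peaks of all scores were also crowded in the window. It was chosen on the positions of these same peaks, so the counts are a description and were not tested. It held 14.5 peaks per Mb in replicate 1 and 29.1 in replicate 2, against 0.921 and 1.35 over the rest of chromosome 13 up to the last listed peak. Among all 4753 windows of that grid, 62 windows had at least 8 peaks of replicate 1 and 20 had at least 16 of replicate 2. Chromosomes 2 to 19 made up 4092 of the windows and held 19 and 10 of these, and the others were on chromosomes 1 and X. Besides the proliferin window, 7 of the other 61 windows crowded in replicate 1 and 4 of the other 19 crowded in replicate 2 also held a strong region. In 1 and 0 of these, respectively, a strong region was narrower than 1100 bp. That limit was set with the widths known and lies above those of the window's own strong regions, so this count does not set the window apart. The nearest peaks outside the window were well away from its edges. Those of replicate 1 were 6607 kb before it (score 74.99) and 496 kb after it (71.8), and those of replicate 2 were 781 kb before it (67.3) and 776 kb after it (1547, rank 13). The outermost peaks inside lay between 77.4 and 94.7 kb from the edges.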

How the data were processed

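Nrf2 ChIP-seq was analysed from the deposited peak lists of 2 replicates. The submitters' processing notes name mm9 as the build and list bcl2fastq 2.15.0, Bowtie2 and MACS 1.4. Roles, settings, the control and the handling of reads that match several gene copies are not given in the sources. Each replicate has a list of its own. The deposited score was taken to be 10 times the −log10 of a p-value, since its lowest value of 50 would be 1e-05, and was used to describe, rank and filter within a list.

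Members were all peaks overlapping the window, which, like the lists of genes and motifs, was chosen with earlier results of these data known. All peaks and regions of the window were named, with the neighbouring genes. An overlap of 1 bp or more made peaks shared, chains were merged, and distances are between centres. Positions count from 1. Promoters were aligned globally with free ends (Biopython 1.88). The overlap and motif code was tested on simulated data. No hypothesis test was run. Scripts ran in Python 3.11.15 with matplotlib 3.10.9, SciPy 1.17.1 and NumPy 2.4.6.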

Additional observations from a re-analysis of the deposited data

How the results depend on the processing

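Shared regions numbered 6, and 5 when overlap of at least 50% of both peaks or centres within 200 bp were required, since chr13:12945311-12945957 did not pass. With scores of at least 100, and with scores of at least 200, 3 shared regions were left, the strong ones. At these limits replicate 1 kept 3 of its 8 peaks, and replicate 2 kept 5 and 4 of its 16. At a score of at least 1000 in both replicates 1 strong region was left, the first. Widening the window by 100 kb on each side added no peak. From the peaks of a single replicate the spacings were 211.89 to 211.98 kb and 142.81 to 142.89 kb. The share of promoters with the antioxidant response element was 10.2% for the core and 0.390% for the longer motif. Among peaks of chromosomes 2 to 19 the first strong region ranked 1 in both lists, the second 15 and 10, and the third 18 and 8. Of 24 alternative values, 9 stayed within 1.5 times the count, within the spread, or at the same rank, and 15 did not. Any change of rank was counted among the 15, such as that of the second strong region from 18 to 15 in replicate 1. The 15 also held the spacings from replicate 1, 211.98 and 142.89 kb, against 211.89 and 142.82 kb from merged centres. With 1 list alone there are no shared regions to count. No paired analysis was possible because the input has no file here and the ChIP samples form 1 group. Depth is unknown, which limits what peaks of only 1 list can show, and how surely reads were placed among near-identical gene copies was not tested.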

Other observations

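The spacings of the companion peaks follow from the distances already given and are no separate finding. The centres of the companions of the first and second strong regions lay 205.5 kb apart and those of the second and the third 172.0 kb apart, against 211.9 and 142.8 kb between the strong regions. The companions were picked after their values were seen, and the scores of the second and the third come from replicate 2 alone.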
